A study of Mus musculus with 17 samples.

Results

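Fibronectin and 7 matricellular proteins were followed through lung fibroblast cultures from 17 mice. The members were Fn1, Postn, Tnc, Sparc, Thbs1, Thbs2, Tgfbi and Cthrc1, taken by gene symbol from the deposited count table, and they made up 8 of its 55421 genes. All 8 had more than 10 CPM (counts scaled to a common library size) in at least 2 libraries, the filter that kept 10481 genes for testing.

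Matricellular proteins are secreted into the extracellular matrix, where they act on cells and on other matrix proteins more than they bear load. They bind integrins and other surface receptors, hold or release growth factors, and steer the assembly of collagen fibrils on a scaffold of fibronectin. Most are scarce in the healthy adult lung and are made by activated fibroblasts and myofibroblasts after injury, often downstream of TGF-β. Fibronectin is the glycoprotein scaffold itself. Periostin (Postn) crosslinks collagen through its partners, tenascin-C (Tnc) counters the adhesion of cells to fibronectin, and SPARC binds collagen outside the cell. The thrombospondins (Thbs1, Thbs2) are large trimers that bind CD36 and CD47, and thrombospondin 1 is known as an activator of latent TGF-β. Tgfbi is a secreted integrin ligand related to periostin that was named for its induction by TGF-β, and Cthrc1 is a secreted collagen triple helix repeat protein used as a marker of fibroblasts in fibrotic lung.

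All mice carried homozygous floxed Ephb4 and a tamoxifen-inducible Col1a2-Cre transgene on a C57BL/6J background, so that Cre was driven from a Col1a2 promoter. The sample labels name the transgene Col1a2-CreERT2, and the study names it Col1a2-CreERT. At 4 weeks of age they received either 4-hydroxytamoxifen (1 mg per day for 5 days, Ephb4 CKO) or corn oil (Ephb4 control), so the arms differed in the agent given and not in inherited alleles, and loss of Ephb4 and exposure to 4-hydroxytamoxifen cannot be told apart. At 6 weeks they were given bleomycin (1.2 U/kg into the trachea), a drug that injures the lung, or PBS, and 14 days later the lungs were digested and the cells cultured and passaged 1 time before total RNA was sequenced. Each library came from 1 mouse, and the control arm held 4 PBS and 4 bleomycin mice while the CKO arm held 5 PBS and 4 bleomycin mice. The deposited values are whole-number counts per gene, which were scaled here to CPM with TMM library sizes.

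Total counts ran from 66540022 to 120554468 per library. Ephb4 ran from 13.1 to 65.1 CPM in the Ephb4 control bleomycin libraries and from 4.93 to 14.0 CPM in the Ephb4 CKO bleomycin libraries, and the ranges overlapped (log2 fold change -2.00 ± 0.79, edgeR adjusted p = 0.220). After PBS it ran from 2.32 to 33.4 CPM in Ephb4 control and from 4.01 to 23.6 CPM in Ephb4 CKO libraries (-0.73 ± 0.72, adjusted p = 1.00), so the count does not separate the genotypes there. The count covers the whole gene, and which exons the floxed allele removes was not used here. In 3 libraries the sex genes went against the sex label, namely the second bleomycin mouse of the control arm and bleomycin mice 1 and 2 of the CKO arm, so the members' median differences in the main comparisons are also given without them. Ephb4 after bleomycin overlapped between genotypes only through control mouse 2 (13.1 CPM) and CKO mouse 1 (14.0 CPM), both among those 3 libraries. Without the 3, it ran from 35.3 to 65.1 CPM in control and from 4.93 to 10.1 CPM in CKO libraries. Whether these libraries were swapped could not be settled. The cultures were not pure by their markers. Summed CPM over 19 macrophage markers ran from 1323 to 45253 across the 17 libraries, and summed CPM over 14 fibroblast markers ran from 16.4 to 13580.5. In bulk RNA such as this, fewer cells of a type and less RNA per cell cannot be told apart.

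For the members that moved most between cultures, the 250 bases before a RefSeq start site are shown where that window holds no annotated exon (GRCm38.p6, printed 5′ to 3′ on the gene's strand). Capitals mark the letters TATAAA and CCAAT, searched on both strands. Postn had another window without an annotated exon, chr3:54359017-54359266, which held none of the letters searched and is not shown.

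Postn, chr3:54360857-54361106, plus strand: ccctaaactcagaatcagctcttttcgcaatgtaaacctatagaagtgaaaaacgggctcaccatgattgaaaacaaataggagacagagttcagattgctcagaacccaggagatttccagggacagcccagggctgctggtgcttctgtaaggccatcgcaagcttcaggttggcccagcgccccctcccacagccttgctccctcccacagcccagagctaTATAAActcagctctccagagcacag

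Tnc, chr4:64047016-64047265, minus strand: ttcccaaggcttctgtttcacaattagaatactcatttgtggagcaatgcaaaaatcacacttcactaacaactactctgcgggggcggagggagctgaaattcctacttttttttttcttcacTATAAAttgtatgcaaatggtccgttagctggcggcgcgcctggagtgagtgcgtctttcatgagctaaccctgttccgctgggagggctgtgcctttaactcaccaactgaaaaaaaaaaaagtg

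Thbs2, chr17:14694263-14694512, minus strand: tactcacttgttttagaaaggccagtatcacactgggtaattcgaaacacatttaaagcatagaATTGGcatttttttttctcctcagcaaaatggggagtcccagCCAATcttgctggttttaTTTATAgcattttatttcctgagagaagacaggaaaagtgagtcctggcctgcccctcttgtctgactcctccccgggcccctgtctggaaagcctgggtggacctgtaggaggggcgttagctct

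Counted from the start site, the letters TATAAA began at position -26 in Postn, at -126 in Tnc, and at -126 on the reverse strand in Thbs2. These letters occurred in 12.4% of 32851 mouse promoter windows of the same length, and CCAAT, found on both strands in the Thbs2 window, occurred in 33.8%. A search for TGANTCA (6.75% of windows), GGAATG (12.6%), GTCTAGAC (0.167%) and the CArG box (1.47%) returned no match in the windows of these 3 genes, which says only that those letters are not there. Fn1, Thbs1 and Cthrc1 had no entry in the promoter table used.

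The cultures from bleomycin-treated Ephb4 control mice carried the most matricellular RNA. The 8 members together summed to between 5715 and 10051.8 CPM in those 4 libraries. In the other groups the sum ran from 179 to 4587 CPM (Ephb4 control PBS), from 400.4 to 4016 CPM (Ephb4 CKO PBS) and from 420.1 to 3497 CPM (Ephb4 CKO bleomycin), so no library of another group reached the lowest bleomycin control. The mean of 7 of the 8 members was 2.47 to 29.1 times as high in Ephb4 control as in Ephb4 CKO mice after bleomycin, and Tgfbi was the exception at 0.801 times. Spread between mice of a group was also large, and none of these differences passed edgeR's quasi-likelihood test after Benjamini-Hochberg adjustment over all genes tested.

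**Figure D1:**
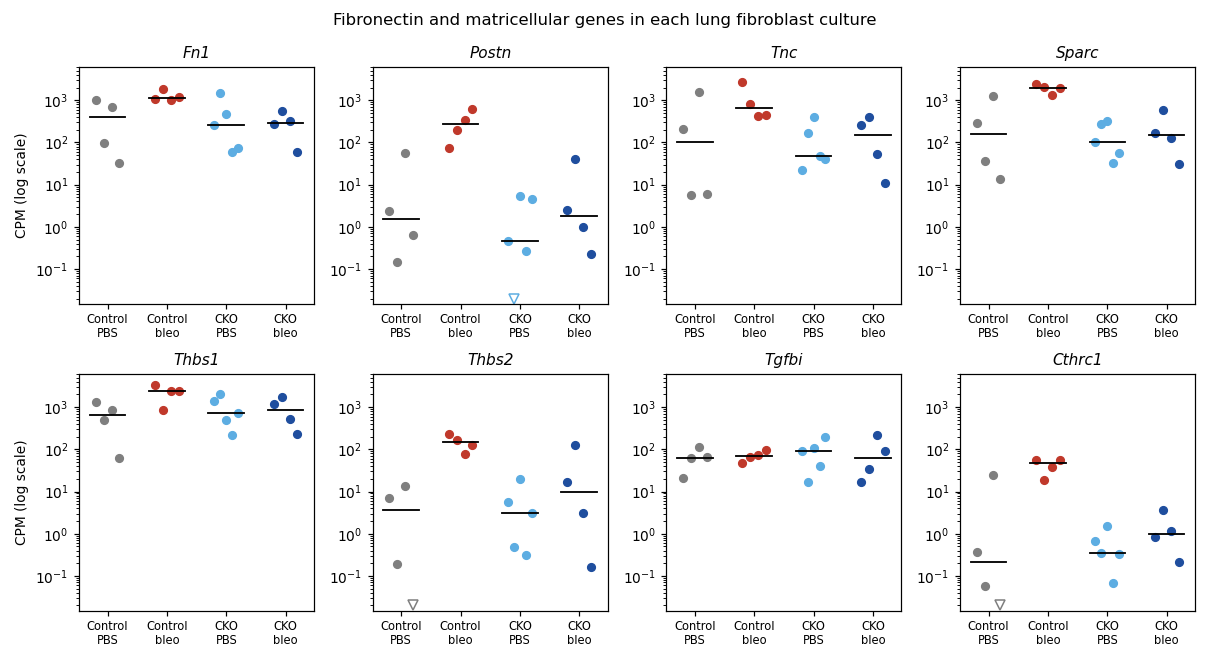
CPM of each member on a log scale (vertical axis) in every culture, grouped by genotype and treatment (horizontal axis). Points are mice, black lines are group medians and open triangles mark libraries with a count of 0. The 4 Ephb4 control bleomycin libraries sat within 1.78-fold of each other for Sparc, while the 4 Ephb4 control PBS libraries spread over 96.6-fold.

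Compared per kilobase of exon, the only scale on which levels of different genes are set side by side here, Sparc and Thbs1 led in the Ephb4 control bleomycin libraries with medians of 531 and 393 CPM per kb. Fn1 (94.7) and Tnc (82.3) followed, then Postn (31.5), Cthrc1 (29.5), Thbs2 (20.9) and Tgfbi (18.4). Each neighbouring pair in that order had overlapping ranges over the 4 mice. The lengths merge the exons of all annotated transcripts of a gene (8702 bp from 9 transcripts for Postn). They can exceed the length of a single mRNA, so the order depends on the length used. Over all 17 libraries the order was led by Thbs1 (median 141 CPM per kb), and Postn moved from the fifth place to the last (0.291).

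Fn1, on the reverse strand of chromosome 1 (71585520 to 71653200 in GRCm38, like all positions below), encodes the fibronectin scaffold. It stood at 1020.1, 99.0, 712 and 32.7 CPM in Ephb4 control PBS mice 1 to 4 and at 1045, 1841, 1026 and 1168 CPM in the 4 Ephb4 control bleomycin mice. In the Ephb4 CKO cultures it was at 265, 1500.2, 485, 59.6 and 72.4 CPM after PBS and at 274, 562, 316 and 60.9 CPM after bleomycin. All 4 bleomycin control values were above every PBS control and every bleomycin CKO value, but by a narrow margin over PBS control mouse 1, and the highest CKO value belonged to a PBS mouse. The edgeR log2 fold change was 1.45 ± 1.05 (SE) for bleomycin versus PBS in control mice (adjusted p = 0.514) and -2.07 ± 1.07 for Ephb4 CKO versus control after bleomycin (adjusted p = 0.271).

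Postn (chromosome 3, 54361109 to 54391037, forward strand), the collagen crosslinking partner periostin, had the widest range. Ephb4 control PBS mice gave 2.36, 0.146, 56.8 and 0.631 CPM, and Ephb4 control bleomycin mice gave 73.3, 198, 350.3 and 619 CPM. Among Ephb4 CKO mice, the PBS libraries were at 0.451, 0, 5.49, 0.265 and 4.51 CPM, where the count of 0 allows up to 0.0509 CPM, and the bleomycin libraries were at 2.53, 40.0, 0.996 and 0.223 CPM. Every bleomycin control culture stood above all other cultures, and 1 mouse each of the PBS control and bleomycin CKO groups was far above the rest of its group. The edgeR log2 fold change was 4.37 ± 1.99 for bleomycin versus PBS in control mice (adjusted p = 0.345). For Ephb4 CKO versus control after bleomycin it was -4.83 ± 2.04 (adjusted p = 0.227), and the mean was 28.4 times higher in the controls.

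Tnc, which encodes tenascin-C and lies on the reverse strand of chromosome 4 (63959785 to 64047015), read 204, 5.60, 1536 and 5.92 CPM in Ephb4 control PBS mice. After bleomycin the control cultures read 2779, 822, 420.1 and 458 CPM. In Ephb4 CKO mice the values were 22.5, 172, 405, 46.6 and 39.5 CPM with PBS and 254, 402, 53.6 and 11.1 CPM with bleomycin. The PBS and bleomycin control groups overlapped through PBS mouse 3, whereas the bleomycin CKO group lay wholly below the bleomycin control group by a small gap. Log2 fold changes in edgeR were 1.36 ± 1.48 for bleomycin in control mice (adjusted p = 0.664) and -2.64 ± 1.54 for genotype after bleomycin (adjusted p = 0.318).

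Sparc (chromosome 11, 55394500 to 55423183, reverse strand), the collagen-binding glycoprotein SPARC, was the steadiest member among the bleomycin controls, at 2405, 2012, 1349 and 2007 CPM. The PBS controls spread over 283, 37.3, 1285 and 13.3 CPM. Ephb4 CKO cultures were at 105, 274, 324, 32.4 and 57.4 CPM after PBS and at 164, 602, 130.3 and 30.2 CPM after bleomycin. No culture of another group reached the bleomycin controls, although PBS control mouse 3 came close. Mean Sparc was 1943 ± 438 CPM (SD, n = 4) in bleomycin-treated control mice and 232 ± 254 CPM (n = 4) in bleomycin-treated Ephb4 CKO mice, an edgeR log2 fold change of -3.07 ± 1.20 (adjusted p = 0.219). The bleomycin log2 fold change in control mice was 2.26 ± 1.17 by edgeR (adjusted p = 0.383).

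Thbs1 (chromosome 2, 118111876 to 118127133, forward strand) encodes thrombospondin 1. Its CPM was 1294, 485, 844 and 62.1 in the Ephb4 control PBS cultures and 3420.0, 856, 2382 and 2388 in the Ephb4 control bleomycin cultures. The Ephb4 CKO cultures gave 1405, 2052, 503, 221 and 746 CPM with PBS and 1192, 1723, 513 and 228 CPM with bleomycin. All 4 groups overlapped, since bleomycin control mouse 2 sat among the other groups. By edgeR the log2 fold changes were 1.75 ± 0.84 for bleomycin in control mice (adjusted p = 0.356) and -1.31 ± 0.83 for genotype after bleomycin (adjusted p = 0.351).

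Thbs2 (chromosome 17, 14665500 to 14694235, reverse strand), the second trimeric thrombospondin, was nearly silent in several cultures where Thbs1 was abundant. It read 7.22, 0.191, 13.9 and 0 CPM in PBS controls, with up to 0.0300 CPM allowed by the count of 0, and 226, 166, 76.0 and 127 CPM in bleomycin controls. With Ephb4 CKO it read 5.72, 0.475, 19.8, 0.309 and 3.05 CPM after PBS and 16.8, 129, 3.07 and 0.164 CPM after bleomycin. Bleomycin separated the control groups completely, but bleomycin CKO mouse 2 was as high as the bleomycin controls. The bleomycin log2 fold change in control mice was the largest of the 8 at 4.81 ± 1.96 (edgeR adjusted p = 0.323), and the genotype difference after bleomycin was -1.99 ± 1.73 (adjusted p = 0.492).

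Tgfbi (chromosome 13, 56609523 to 56639562, forward strand), the periostin relative, behaved apart from the others. PBS and bleomycin controls were at 21.2, 61.6, 114 and 64.4 CPM and at 48.7, 66.3, 72.3 and 98.5 CPM. Ephb4 CKO cultures were at 91.0, 16.7, 106, 39.9 and 199 CPM with PBS and at 16.7, 35.1, 215 and 89.5 CPM with bleomycin. The groups overlapped throughout, and the 2 highest values came from Ephb4 CKO mice. Its edgeR log2 fold changes were 0.13 ± 0.75 for bleomycin in control mice (adjusted p = 0.945) and 0.32 ± 0.75 for genotype after bleomycin (adjusted p = 0.814), and the second of these turned negative in 6 of the 16 alternatives other than leaving out single mice.

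Cthrc1 (chromosome 15, 39076932 to 39087121, forward strand) marks fibroblasts of fibrotic lung. PBS controls read 0.362, 0.0562, 24.5 and 0 CPM, and bleomycin controls read 54.7, 19.1, 39.2 and 55.9 CPM. The Ephb4 CKO libraries read 0.682, 0.356, 1.52, 0.0662 and 0.334 CPM after PBS and 0.858, 3.60, 1.14 and 0.211 CPM after bleomycin. Both Ephb4 CKO groups were low in all 9 mice and below every bleomycin control, while PBS control mouse 3 fell within the bleomycin range. Outside the bleomycin controls only that PBS mouse was over 10 CPM. Cthrc1 thus passed the filter of 10 CPM in at least 2 libraries only through the group where it was high. Its place among the genes tested is therefore not independent of the comparisons with that group. Ephb4 CKO versus control after bleomycin gave an edgeR log2 fold change of -4.86 ± 1.77 (adjusted p = 0.218), the smallest p of the 8. With DESeq2 in place of edgeR the value was -4.85 ± 1.43 with an adjusted p of 0.0325, and across the 16 alternatives other than leaving out single mice the adjusted p ran from 0.00380 to 1.00. Bleomycin versus PBS in control mice gave 2.76 ± 1.60 (edgeR adjusted p = 0.424).

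**Figure D2:**
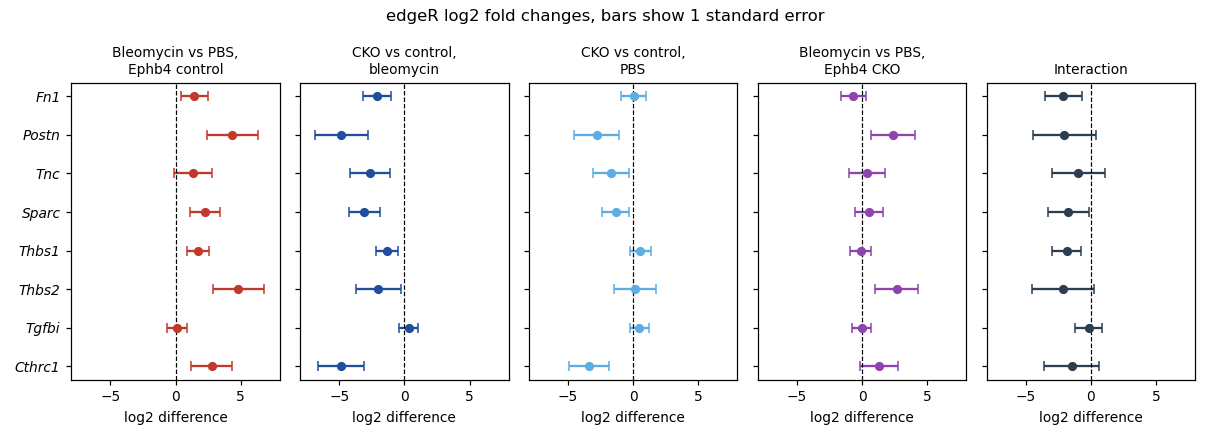
Log2 fold change of each member (horizontal axis, edgeR, bars 1 SE) in the 4 pairwise comparisons and, in the last panel, the interaction, which is the bleomycin effect in Ephb4 CKO minus that in Ephb4 control mice. All 8 points lie above 0 for bleomycin in control mice, 7 of 8 lie below 0 for genotype after bleomycin, and all 8 interactions lie below 0, the nearest at -0.15 for Tgfbi.

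Bleomycin versus PBS in Ephb4 control mice asked how the members differ in cultures from injured lung. All 8 members had a higher fitted value after bleomycin, against 44.5% of all genes tested, with a median log2 fold change of 2.01 against -0.06 over all genes. edgeR called 0 of the 8 at an adjusted p under 0.05, and it called 0% of all genes tested. At an unadjusted p under 0.05 it listed Postn and Thbs2 as higher (2 of 8, against 6.28% of all genes), and DESeq2 listed 4 as higher at an unadjusted p under 0.05 (8.21% of all genes) and called 0 after adjustment (0.935% of all genes were called higher). With the 2 sorted runs of table columns as a covariate, DESeq2 called Postn (1 of 8, against 1.33% of all genes). The groups did not overlap for Fn1, Postn, Sparc and Thbs2 (4 of 8, against 5.72% of all genes in that direction). Leaving out PBS control mouse 3, the only PBS control with a high fibroblast score, moved the members' median to 4.09, with Cthrc1 at 8.31 (adjusted p = 0.0583), Postn at 8.25 and Sparc at 4.17. Among the fits that left out 1 mouse this median was the highest, and the lowest was 1.61, without PBS control mouse 4. Without PBS control mouse 2 the median was 1.76, with 0 members at an unadjusted p under 0.05 (743 of 10472 genes in either direction). Without the 3 libraries that mismatched their sex labels the median was 2.14, and edgeR called 0 of 8.

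Ephb4 CKO versus Ephb4 control after bleomycin asked how cultures from injured lung differ after deletion of Ephb4. Here 7 of 8 members had a lower fitted value (49.3% of all genes), with a median log2 fold change of -2.35 against 0.01 over all genes. edgeR called 0 of 8 and 0% of all genes at an adjusted p under 0.05. At an unadjusted p under 0.05 it listed Postn, Sparc and Cthrc1 as lower (3 of 8, against 9.18% of all genes), and DESeq2 listed 5 as lower before adjustment (12.3% of all genes) and called Cthrc1 alone after it (1 of 8, against 2.42% of all genes, and likewise with the column runs as a covariate, against 2.45%). The groups did not overlap for Fn1, Postn, Tnc, Sparc and Cthrc1 (5 of 8, against 12.2%). Cthrc1 is counted among the members listed, called by DESeq2 and not overlapping here. It passed the filter only through the bleomycin controls, so its part in those counts is not independent of this comparison. When the 3 libraries that mismatched their sex labels were left out, which include the 2 Ephb4 CKO bleomycin cultures with the highest fibroblast scores, the median was -4.95 and edgeR again called 0 of 8.

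limma voom with sample quality weights gave the genotype comparison after bleomycin another outcome. It called Fn1, Postn, Sparc, Thbs2, Tgfbi and Cthrc1 as lower (6 of 8), with adjusted p values from 0.000420 for Postn to 0.0365 for Tgfbi, while it called 23.2% of all genes tested as lower and 21.2% as higher. Without the weights the same tool called 0 of 8.

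Between genotypes after PBS the members did not separate. Fitted values were higher in Ephb4 CKO for 4 members (46.4% of all genes) and lower for 4 (53.6%), every member's groups overlapped (0.0286% of all genes stood apart as higher and 0.219% as lower), and edgeR called 0 of 8 and 0% of all genes. DESeq2 also called 0 of 8 (0.00954% of all genes were called higher) and listed 1 as lower at an unadjusted p under 0.05 (1.05% of all genes). Cthrc1 had the lowest unadjusted p (0.0419, 1 of 8 listed as lower against 0.563% of all genes, with 1.43% listed as higher), at a log2 fold change of -3.39 ± 1.52 and an adjusted p of 1.00. That direction rested on PBS control mouse 3, without which the value was 2.13, and without that mouse all 8 members had a higher fitted value in Ephb4 CKO.

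Bleomycin versus PBS within Ephb4 CKO mice showed no separation either. edgeR and DESeq2 each called 0 of 8, 0 members had an unadjusted p under 0.05 in either tool (edgeR listed 0.248% of all genes as higher and 0.716% as lower), and every member's groups overlapped (0.0763% of all genes stood apart as higher and 0.00954% as lower). DESeq2 called 0.00954% of all genes as lower. Fitted values were higher for 5 members (44.2% of all genes) and lower for 3 (55.8%). Log2 fold changes ran from -0.65 ± 0.99 for Fn1 to 2.67 ± 1.64 for Thbs2 and 2.35 ± 1.69 for Postn. The positive values of Postn, Tnc and Sparc rested on bleomycin CKO mouse 2, without which they were -0.78, -0.37 and -0.55.

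Tested directly, the effect of bleomycin did not differ between genotypes for any member after adjustment. The interaction was negative for all 8 (50.3% of all genes), from -2.14 ± 2.35 for Thbs2 to -0.15 ± 1.04 for Tgfbi. Fn1 was at -2.10 ± 1.44 and Thbs1 at -1.86 ± 1.14, the member with the smallest unadjusted p (0.123). edgeR and DESeq2 called 0 of 8 and listed 0 at an unadjusted p under 0.05, where edgeR listed 1.57% of all genes as negative. The members' median interaction was -1.79. Over the fits that left out 1 mouse it ran from -3.41 (without PBS control mouse 3) to -1.07 (without PBS CKO mouse 3). Without PBS control mouse 3, edgeR listed 3 members at an unadjusted p under 0.05, where it listed 1209 of 10313 genes in either direction. They were Cthrc1 (-6.98 ± 1.67), Postn (-5.85 ± 2.43) and Sparc (-3.59 ± 1.47), each with an adjusted p of 0.389 or 0.390. Without the 3 libraries that mismatched their sex labels the median interaction was -3.39, with Thbs1 and Thbs2 listed (592 of 10376 genes in either direction). edgeR called 0 without PBS control mouse 3 and 0 without the 3 libraries. The bleomycin comparison in control mice and the genotype comparison after bleomycin share the same 4 bleomycin control libraries, so their opposite signs are not independent.

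Within sets of libraries defined by the labels and the table, most members kept their direction in the comparisons that involve the bleomycin controls, and did not in the others. Animal numbers in the sample titles begin with 11 or 12, and all 4 bleomycin controls begin with 12, as does 1 PBS control. Among animals of series 12 alone, mean log2 CPM after bleomycin was lower in 2 Ephb4 CKO than in 4 control mice for all 8 members, with differences from -0.50 (Thbs1) to -4.55 (Postn). Both of those CKO mice and 1 of those controls are the 3 libraries that mismatched their sex labels. Series 11 held no bleomycin control, so the comparison could not be made there. For bleomycin versus PBS in control mice, series 12 held 4 mice against 1, with differences from 0.27 (Fn1) to 6.67 (Cthrc1). All members but Tgfbi differed less there than over all control mice, for example Fn1 (2.48 over all) and Thbs1 (0.64 against 2.25). Tgfbi was at 1.70 against 0.31. The labels state that the libraries were sequenced as sets of 8 and 9, and the columns of the table form 2 sorted runs of those sizes. Within both runs, with 2 against 2 mice in each, 7 members were lower in Ephb4 CKO after bleomycin, from -2.06 (Thbs1) to -9.46 (Postn) in the first and from -0.99 (Thbs1) to -4.70 (Cthrc1) in the second. Tgfbi was 0.78 in the first run and -1.29 in the second. The bleomycin CKO mice of the second run are mice 1 and 2, the same 2 as in series 12, and both mismatched their sex labels. The mismatched bleomycin control is in the first run. The second run is thus not independent of the series 12 comparison. For bleomycin versus PBS in control mice, all members but Tgfbi were higher in both runs, by up to 6.83 (Postn) in the first and up to 9.01 (Cthrc1) in the second. Bleomycin versus PBS within Ephb4 CKO mice took opposite signs in the 2 runs for 7 members, for example Postn (-3.33 and 6.15) and Thbs2 (-3.36 and 5.57), and Tgfbi was negative in both. The bleomycin mice of the second run are again those 2 mismatched CKO libraries. Between genotypes after PBS, Fn1, Postn, Sparc, Thbs1 and Cthrc1 had opposite signs in the 2 runs, with Postn at 0.70 and -3.13.

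Markers of other cell types moved with these results. Summed fibroblast markers ran from 7406 to 13580.5 CPM in bleomycin controls but from 22.5 to 2072 CPM in bleomycin CKO, from 16.4 to 9048 CPM in PBS controls and from 48.5 to 2591 CPM in PBS CKO libraries, and no marker of the list was at 0 in a whole group. The fibroblast score, the mean log2 CPM of the 12 of 14 markers that passed the filter, was 7.99 to 8.75 in bleomycin controls and 0.22 to 6.84 in bleomycin CKO. All 12 had a lower fitted value in bleomycin CKO than in bleomycin controls, with a median log2 fold change of -3.52, which was below the members' -2.35. The 18 macrophage markers that passed the filter all had a higher fitted value in the CKO group (median log2 fold change 1.11), and their summed CPM was 23018 to 43287 there against 1323 to 20720 in bleomycin controls. Smooth muscle markers, which myofibroblasts also express, had 5 of 5 lower fitted values (median -2.56).

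Some members followed the fibroblast markers closely and others did not. The 14 fibroblast markers were Col1a1, Col1a2, Col3a1, Col5a1, Col5a2, Dcn, Lum, Pdgfra, Pdgfrb, Thy1, Tcf21, Mfap5, Loxl1 and Fbn1. Most are matrix genes, as the members are, so fibroblast content and shared matrix expression cannot be told apart by this score. The 7 libraries with the highest fibroblast scores (6.36 or more, the next being 4.41) were the 4 bleomycin controls, PBS control mouse 3, bleomycin CKO mouse 2 and PBS CKO mouse 3. They were also the 7 highest libraries for Postn, Tnc, Sparc and Cthrc1, in the same order for Sparc, and they held 6 of the 7 highest for Thbs2. For Fn1 they held 5 of 7, for Thbs1 4 and for Tgfbi 3. Fn1 and Thbs1 were high in PBS control mouse 1 and PBS CKO mouse 2, whose fibroblast scores were only 3.31 and 1.39. Those libraries had the 2 highest sums of the 4 mesothelial markers, 1102 and 1499 CPM, against 19.1 to 499 CPM in the other 15. They also had the 2 highest sums of the 8 epithelial markers, 2086 and 2535 CPM, the next being 1247 CPM. Their smooth muscle marker sums were 457 and 490 CPM. The 7 libraries with the highest smooth muscle scores held 6 of the 7 highest for Fn1 and 5 for Thbs1. They included PBS control mouse 1 but not PBS CKO mouse 2. Of the 4 mesothelial markers only 2 passed the filter, and 1 had no count in any Ephb4 control PBS library, mouse 1 included. The part of these cell types in the Fn1 and Thbs1 values was not tested.

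**Figure D3:**
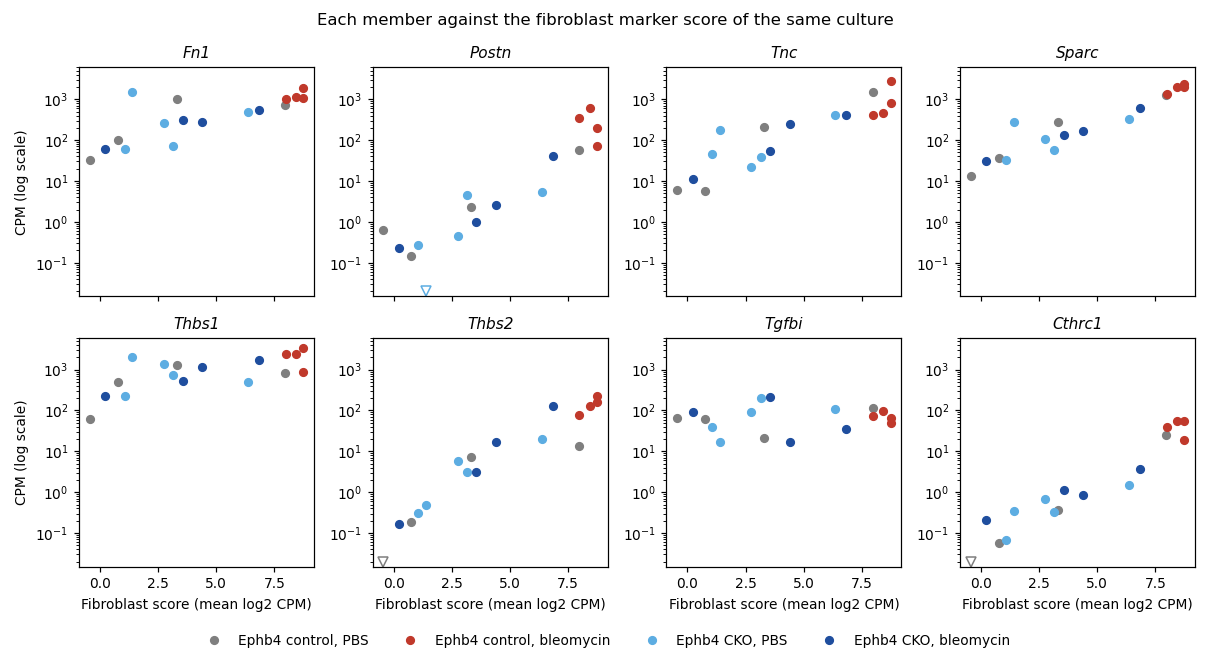
CPM of each member on a log scale (vertical axis) against the fibroblast score of the same library, the mean log2 CPM of 12 markers (horizontal axis). Points are mice coloured by group, and open triangles mark a count of 0. The highest values of Sparc, Postn and Cthrc1 sit at the right, where scores reach 8.75, whereas Tgfbi spans 16.7 to 215 CPM with no such order.

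With the fibroblast score as a covariate in edgeR, the members' median log2 fold change went from 2.01 to 0.24 for bleomycin in control mice and from -2.35 to -0.63 for genotype after bleomycin. No member had an unadjusted p under 0.05 in either comparison. Postn then had the largest difference, 1.82 ± 1.47 and -2.53 ± 1.21, and Cthrc1 went to 1.42 ± 0.87 and -0.90 ± 1.07. Tnc (0.45 ± 1.16) and Thbs2 (1.58 ± 1.14) changed sign in the genotype comparison after bleomycin, where they had been at -2.64 and -1.99. The score is itself an outcome of culture and treatment, and most of its markers are matrix genes like the members. This fit therefore does not separate a change in the members from a change in the number of fibroblasts. With the macrophage score as the covariate, the medians were 1.88 and -1.38.

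**Figure D4:**
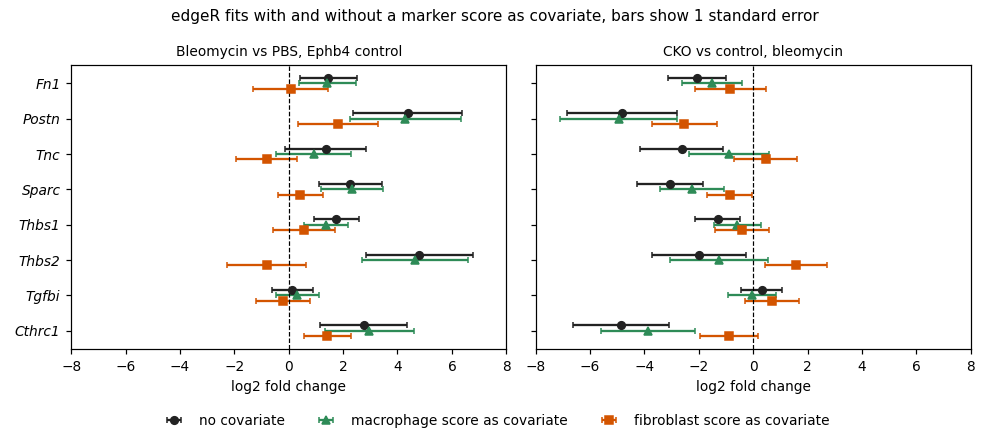
Log2 fold changes (horizontal axis, edgeR, bars 1 SE) of each member without a covariate, with the macrophage score and with the fibroblast score, for bleomycin versus PBS in control mice (left) and Ephb4 CKO versus control after bleomycin (right). With the fibroblast score most points lie nearer to 0, and Postn is then the farthest from it at 1.82 and -2.53.

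The genes most like each member were found by the SD, over all 17 libraries, of the difference between their log2 CPM, where a small SD means a steady ratio. Sparc had the closest partner, Serpinh1, which encodes the collagen chaperone HSP47, at 0.27, followed by Grb10 (0.37), and the median over all genes was 2.45. Fn1 was closest to Synpo (0.49) and Cavin1 (0.49), against a median of 1.92. Thbs1 was closest to Rhod (0.54) and Traf3ip2 (0.60), with a median of 1.57. Tnc was closest to Khdrbs3 (0.73) and Ptprd (0.74), against 2.76.

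The members with the widest ranges had partners at larger SDs, and their medians over all genes were larger as well. Cthrc1 was closest to Adamts12 (0.95) and to Col5a2 (1.11), a fibrillar collagen chain, against a median of 3.59. Thbs2 was closest to Pdzrn3 (1.26) and Col5a1 (1.30), against 4.04, and Postn to the laminin chains Lama1 (1.40) and Lama2 (1.45), against 4.36. Tgfbi stood nearer to the typical gene, with Selenow at 0.72 and C1rl at 0.73 against a median of 1.21. Among the members themselves the steadiest ratios were Tnc to Sparc (1.02), Fn1 to Sparc (1.02) and Fn1 to Thbs1 (1.08), and the least steady was Postn to Tgfbi. All of these share the same libraries, and they are given as a description with no test.

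Other matricellular genes mostly had fitted values of the same sign as the members. The table held 25 further genes listed here as related (thrombospondins, tenascins, SPARC relatives, CCN proteins, fibulins and others), and 14 passed the filter. After bleomycin 13 of the 14 had a lower fitted value in Ephb4 CKO than in control mice, with a median log2 fold change of -1.77, and edgeR and DESeq2 called 0 at an adjusted p under 0.05, while edgeR listed 2 of 14 as lower at an unadjusted p under 0.05 (9.18% of all genes). Those with the smallest p were Ccn4, a secreted CCN protein induced by Wnt signalling (-4.25 ± 1.81, adjusted p = 0.228), Fstl1, a follistatin-like SPARC relative (-1.80 ± 0.77, adjusted p = 0.228), and Thbs3, a pentameric thrombospondin (-2.02 ± 0.99, adjusted p = 0.257). Spp1, osteopontin, which macrophages also make, was the 1 with a higher fitted value, at 0.11 ± 0.61. For bleomycin versus PBS in control mice 12 of 14 had a higher fitted value (median 1.25), with 0 called by edgeR or DESeq2 and 2 of 14 listed as higher by edgeR at an unadjusted p under 0.05 (6.28% of all genes).

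Receptors for these proteins and genes of TGF-β signalling were mixed. The table held 22 such genes, of which 21 passed the filter, and 14 had a lower and 7 a higher fitted value in Ephb4 CKO than in control mice after bleomycin, with a median of -0.50. edgeR called 0 after adjustment. At an unadjusted p under 0.05 it listed 6 of 21, 2 as higher and 4 as lower, against 20.2% of all genes in either direction, and DESeq2 called 1 as higher (1.38% of all genes) and 2 as lower (2.42%). Cd36, the thrombospondin receptor and scavenger receptor that is abundant in macrophages, averaged 1513 CPM in bleomycin CKO and 217 CPM in bleomycin controls (log2 fold change 2.80 ± 0.68, adjusted p = 0.187). The fibronectin receptor chains Itga5 and Itgb1 stood lower. Itga5 averaged 67.4 against 186 CPM (-1.46 ± 0.36, adjusted p = 0.187), and Itgb1 averaged 515 against 1033 CPM (adjusted p = 0.197). Another integrin chain of the list, Itga4, went the other way, at 63.5 CPM in bleomycin CKO against 24.8 CPM in bleomycin controls (1.35 ± 0.57, edgeR adjusted p = 0.226).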

How the data were processed

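Total RNA was sequenced in 17 libraries of cultured mouse lung fibroblasts, with groups taken from the sample labels and 1 mouse per library. The authors deposited whole-number counts per gene. Per the labels and the study's methods, reads of 75 bp were trimmed with cutadapt (the labels give 1.18), aligned strand-specifically to GRCm38 with HISAT2 2.1.0, and assembled with StringTie, whose accompanying script derives the counts from coverage. Fn1, Tnc and Thbs1 each overlap an exon of a gene on the opposite strand. A batch number that the study used in its model is not tied to libraries in the sources used here.

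CPM was computed with TMM sizes, and log2 CPM with a prior count of 2. Genes with CPM over 10 in at least 2 libraries (10481 of 55421) were tested with edgeR 4.0.16 (R 4.3.3) across all 17 libraries, fitting each group's mean without a covariate, with Benjamini-Hochberg adjustment at 0.05. A replicate was 1 mouse. Standard errors were the absolute log2 fold change over the square root of F, and exon lengths and positions from GENCODE M21. Alternatives were DESeq2 1.42.0, limma 3.58.1 voom with and without sample weights, RLE normalization, 2 other filters, library sizes without the 20 most counted genes, covariates (sex, number series, column runs, macrophage or fibroblast score), only the groups compared, libraries left out, and a larger prior count. The fits were tested on simulated data. Intervals for counts of 0 (3 counts) cover counting error only. The members, gene lists and named genes (all members, the 3 genes with the smallest p per list after bleomycin, and the 2 nearest genes per member, with further genes named from their values) were chosen with earlier results of these data known.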

Additional observations from a re-analysis of the deposited data

Results flagged for a closer look

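In 7 of 32 sets of CPM values (8 members in 4 groups), the highest mouse stood farther from the rest of its group than Dixon's 95% limit allows. Chance marks about 1 set in 20 where values are normally distributed, but CPM of these genes is skewed, and on log2 CPM, a scale chosen after seeing the data, 0 of the 32 sets were marked. Among Ephb4 control PBS mice this was mouse 3 for Postn (56.8 CPM), Tnc (1536 CPM) and Cthrc1 (24.5 CPM). Among Ephb4 CKO bleomycin mice it was mouse 2 for Postn (40.0 CPM) and Thbs2 (129 CPM), and this library is also 1 of the 3 whose sex genes went against the label. Ephb4 CKO PBS mouse 3 was highest for Thbs2 (19.8 CPM), and Ephb4 control bleomycin mouse 1 for Tnc (2779 CPM). Control PBS mouse 3, CKO bleomycin mouse 2 and CKO PBS mouse 3 had the highest fibroblast scores of their groups, 7.96, 6.84 and 6.36. The sets are not independent, since members of 1 library share its cells.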

How the results depend on the processing

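In the comparison of Ephb4 CKO with control after bleomycin, edgeR called 0 of the 8 members. DESeq2 called 1 as lower (Cthrc1, against 2.42% of all genes), and so did DESeq2 with the column runs as a covariate (Cthrc1, against 2.45%). limma voom with sample quality weights called 6 as lower, where it called 23.2% of all genes as lower and 21.2% as higher. For bleomycin in control mice, DESeq2 with the column runs called 1 as higher, Postn (log2 fold change 5.34, adjusted p = 0.0331), against 1.33% of all genes. Leaving out single mice gave 0 calls (0 to 0) in all 5 comparisons. All 7 negative members after bleomycin stayed negative in every alternative but the fibroblast score, where Thbs2 was 1.58 and Tnc 0.45. Tgfbi turned negative there with the weights (-1.48), number series (-1.03), voom without weights (-0.23), DESeq2 with column runs (-0.15), edgeR with column runs (-0.14) and the macrophage score (-0.049). For bleomycin in control mice, the fibroblast score gave Tgfbi -0.21, Thbs2 -0.81 and Tnc -0.82. Genotype after PBS reversed for Fn1 with the weights (-1.10), sex (-0.52), number series (-0.32) and column runs (-0.087 in edgeR and -0.085 in DESeq2), for Thbs1 (-0.27) and Thbs2 (-0.28) with the weights, for Cthrc1 (0.79) and Tnc (0.46) with voom without weights, and for Cthrc1 (0.15), Sparc (0.30) and Tnc (0.76) with the fibroblast score. Bleomycin in CKO mice reversed for Fn1 (0.26) and Thbs1 (0.56) with the weights, Thbs1 with sex (0.15) and the macrophage score (0.024), Tgfbi with the macrophage (0.039) and fibroblast (0.011) scores, Sparc (-0.75) and Tnc (-1.13) with the fibroblast score, and Postn (-1.85), Sparc (-1.02), Tgfbi (0.71), Thbs2 (-1.88) and Tnc (-2.12) without the libraries against their sex labels. The interaction reversed for Tgfbi (0.22) and Thbs2 (1.00) with the fibroblast score and for Tgfbi (0.54) without those libraries. Leaving out 1 mouse moved genotype after PBS from -4.13 to 2.13 for Cthrc1, -1.08 to 0.76 for Fn1, -3.52 to 1.06 for Postn, -1.81 to 0.53 for Sparc, -0.041 to 0.90 for Tgfbi, -1.15 to 1.26 for Thbs2 and -2.67 to 0.95 for Tnc. It moved bleomycin in CKO mice from -1.13 to 0.46 for Fn1, -0.78 to 3.04 for Postn, -0.55 to 0.99 for Sparc, -0.95 to 0.49 for Tgfbi, -0.61 to 0.35 for Thbs1 and -0.37 to 1.37 for Tnc. Tgfbi ran from -0.16 to 0.58 for bleomycin in control mice, from -0.60 to 0.67 for genotype after bleomycin and from -1.07 to 0.36 for the interaction, and the interaction of Tnc from -3.59 to 0.029. The median interaction moved from -1.79 to -3.41 without control PBS mouse 3 and to -3.39 without the libraries against their sex labels. It moved the other way without CKO PBS mouse 3 (-1.07) and with the fibroblast score (-1.11). The cause of these changes was not tested. With only the compared groups fitted, 6 of 8 members passed the filter in the genotype comparison after PBS and in bleomycin in CKO mice. The column runs and voom without weights were chosen after seeing the data. No paired analysis was possible because the replicate numbers were given in accession order and do not pair mice. Depth bears mainly on the 3 values with a count of 0, while Tnc ranged over 496-fold across the 17 libraries.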
